A study of Mus musculus with 8 samples.

Results

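The H3K9me1 map of mouse embryonic fibroblasts (MEFs) was described from the deposited list of enriched regions, with every region of that list taken as a member. The list held 42704 of the 98931 regions deposited for the mono-, di- and trimethylated forms of lysine 9 of histone H3. ChIP-seq, in which chromatin fragments pulled down by an antibody are sequenced, was done on MEFs, which are fibroblasts cultured from mouse embryos. The H3K9me1 group and the input group (sonicated chromatin without immunoprecipitation) had 2 samples each, 4 of the 8 samples of the series. All were labelled wild type. In the study's methods, wild type stands for the Eset1-conditional line E1c, a clone selected for high activity of an inducible Cre, in which tamoxifen deletes exons of Eset1 (Setdb1) and which was used here without that treatment. The map is therefore that of 1 clone in culture. There was 1 list for the 2 H3K9me1 replicates and it held only chromosome, start and end, so no value per replicate, no mean ± SD and no depth could be given, and no test between samples was possible. No list of the input was analysed here. The values below describe 1 map, and intervals given for shares are 95% Wilson intervals that cover counting error only. Neighbouring regions and genes are not independent.

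Lysine 9 of histone H3 is methylated stepwise, and its monomethylated form is both a product of the G9a/Glp and Eset enzymes and the substrate for further methylation. Trimethylation is the form bound by HP1 in compact heterochromatin, whereas monomethylation has also been mapped over transcribed genes. CpG islands, stretches of sequence rich in the dinucleotide CG, surround the starts of most housekeeping genes and of many developmental genes, and these starts are usually open and carry methylation of lysine 4 instead.

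The regions were mostly a few kb wide and were concentrated on 11 chromosomes and in gene-rich stretches of these. Of the gaps between neighbouring regions, 40.5% were at most 3 kb. On the broadly covered chromosomes the share of positions covered was higher in gene bodies than in intergenic sequence and rose along the gene body towards the 3′ end. Gene starts were less covered than the sequence to either side, and this was most marked where the start was CpG-rich. A start was called CpG-rich when the 1 kb around it had a GC content of at least 50% and a ratio of observed to expected CG dinucleotides of at least 0.6. Of the 21938 protein-coding genes (GENCODE M21, GRCm38), 2152 had their start inside a region, or 9.81%.

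Sequence just upstream of 4 gene starts is given for genes that the results name, with each CG in capitals. Cacna1i encodes a voltage-gated calcium channel and Pou5f1 the pluripotency factor Oct4, and both starts lay inside a region. Ehmt1 encodes Glp and Setdb2 encodes Eset2, both H3K9 methyltransferases, and their starts lay outside the regions. The sequences are from RefSeq (GRCm38.p6), 5′ to 3′, and were cut where an annotated exon begins.
Cacna1i (chr15:80287078-80287237, plus strand): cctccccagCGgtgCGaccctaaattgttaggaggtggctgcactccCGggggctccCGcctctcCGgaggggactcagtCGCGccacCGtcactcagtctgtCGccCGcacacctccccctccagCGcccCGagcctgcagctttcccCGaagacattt
Pou5f1 (chr17:35505872-35506017, plus strand): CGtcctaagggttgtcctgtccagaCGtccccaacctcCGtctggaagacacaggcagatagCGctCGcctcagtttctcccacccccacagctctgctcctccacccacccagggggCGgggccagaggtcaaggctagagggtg
Ehmt1 (chr2:24919615-24919769, minus strand): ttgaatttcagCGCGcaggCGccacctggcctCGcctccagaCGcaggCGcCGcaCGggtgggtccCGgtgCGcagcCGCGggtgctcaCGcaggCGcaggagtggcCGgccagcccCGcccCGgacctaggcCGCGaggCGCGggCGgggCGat
Setdb2 (chr14:59440885-59440971, minus strand): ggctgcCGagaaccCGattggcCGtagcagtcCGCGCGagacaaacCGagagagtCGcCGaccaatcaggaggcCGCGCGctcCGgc
The Cacna1i sequence held 13 CG in 160 bases, that of Pou5f1 6 in 146 bases, that of Ehmt1 23 in 155 bases and that of Setdb2 13 in 87 bases. CG reads the same on both strands. Over 32851 RefSeq promoters the last 160 bases before the start held a median of 4 CG, and 86.6% held at least 1. Over the 1 kb around the start, the ratio of observed to expected CG was 0.953 at Cacna1i, 0.937 at Ehmt1 and 0.76 at Setdb2, against 0.332 at Pou5f1. Pou5f1 was thus CpG-poor over the 1 kb, although its printed stretch held more CG than the median promoter. Cacna1i is thus an example of a CpG-rich start inside a region, the less common case.

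Region width spanned from 1 bin of 0.75 kb to 268 kb. The median was 4.5 kb, the mean 7.66 kb, the 25th and 75th percentiles 2.25 and 8.44 kb, and the 99th percentile 54 kb. Regions of a single bin made up 8.24% of the list and 0.807% of the 327 Mb covered. At the other end, the 1616 regions of at least 30 kb were 3.78% of the list and held 24.6% of covered bases. The 5995 widest regions, 14.0% of the list and none narrower than 13.5 kb, held 50% of covered bases. The number of regions thus came mainly from narrow ones and the covered length mainly from wide ones.

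**Figure D1:**
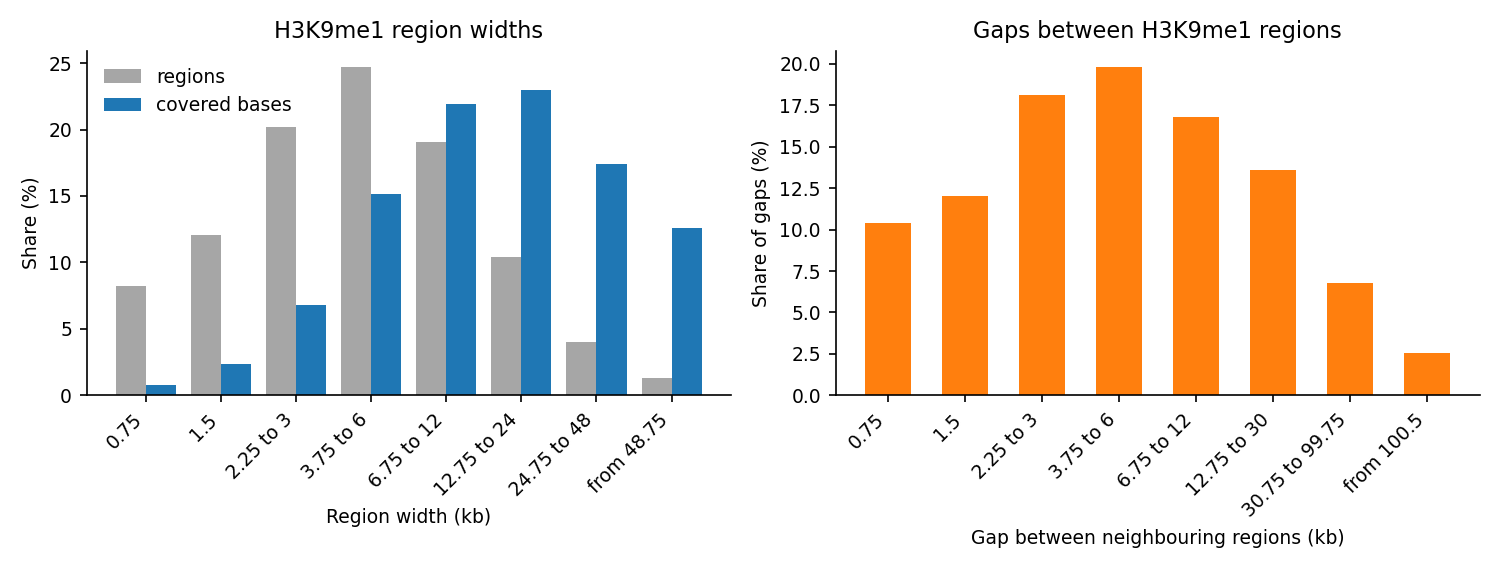
Share of H3K9me1 regions (grey) and of covered bases (blue) by region width in kb, and share of gaps between neighbouring regions by gap length in kb. Regions of 3.75 to 6 kb were the most frequent class (24.7%), while regions of 12.75 to 24 kb held most bases (23.0%), and gaps of 3.75 to 6 kb were the most frequent (19.8%).

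Wide and narrow regions lay differently with respect to genes. Of all regions, 44.6% lay wholly inside a protein-coding gene and 42.7% wholly outside, each with a median width of 3.75 kb. Another 8.26% reached over the end of a gene (median 10.5 kb), 2.83% over a start (median 9 kb), and 1.59% held a whole gene (median 19.5 kb). Regions over a gene end were therefore more numerous than regions over a start, with 3526 against 1208. The share lying wholly inside a gene fell with width, from 46.9% of single-bin regions to 25.2% of regions over 48 kb, as a longer interval must more often run past a gene.

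Gene clusters and whole genes of various kinds were met by the widest regions. A region on chromosome 17 from 12417001 to 12635250 (218 kb) spanned Slc22a3, an organic cation transporter, whole and met Plg, which encodes plasminogen, and Slc22a2. On chromosome 10 a region from 127740751 to 127937250 (197 kb) met 10 protein-coding genes, among them the retinol dehydrogenases Rdh1, Rdh7, Rdh9, Rdh16 and Rdh19. On chromosome 15 a region from 82366501 to 82560750 (194 kb) met 5 Cyp2d cytochrome P450 genes, Cyp2d9, Cyp2d10, Cyp2d11, Cyp2d12 and Cyp2d22. Nox3, an NADPH oxidase of the inner ear, lay whole in a region on chromosome 17 from 3571501 to 3768750 (197 kb). The region on chromosome 10 from 61892251 to 62105250 (213 kb) ran over the start of Col13a1, a transmembrane collagen. One lay wholly inside Trappc9, a gene for a vesicle-tethering subunit, on chromosome 15 from 72822751 to 73022250 (200 kb), and a region of 181 kb from 86326501 to 86507250 on the same chromosome reached over the end of Tbc1d22a. The remaining 3 of the 10 widest met Gpr6 and Fig4 (268 kb), Zdhhc14 (233 kb) and Cradd (218 kb).

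Gaps between neighbouring regions had a median of 4.5 kb, equal to the median width, with 25th and 75th percentiles of 2.25 and 11.25 kb and a 99th percentile of 350 kb. Of the 42684 gaps, 17293 (40.5%) were at most 3 kb. Gaps and widths were related, with a Spearman's rho across gaps of -0.339 between a gap and the mean width of the regions on its sides, which share chromosome and local density. Regions beside single-bin gaps had a median width of 6 kb and regions beside gaps of over 30 kb one of 2.25 kb. The widths of neighbouring regions had a rho of 0.249, and of 0.0871 to 0.355 within each broadly covered chromosome.

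Regions joined into chains when each gap was at most 3 kb. This left 25411 chains, of which 17003 (66.9%) were single regions. Chains of at least 5 regions numbered 1129 and held 18.0% of regions and 32.4% of covered bases, and 45% of these chains lay on chromosomes 10 and 15. Chains of at least 10 regions numbered 137. The chain with most regions lay on chromosome 10 from 75829501 to 76730250, with 35 regions over 901 kb, 93.6% of it covered. It met 25 protein-coding genes, from Gstt2, a glutathione transferase, through S100b, Pcnt and Prmt2 to Col6a2 and Col6a1, which encode collagen VI chains that fibroblasts make. The next chain, also on chromosome 10 (61662751 to 62485500), had 24 regions over 823 kb, met 15 genes including the hexokinase gene Hk1, Hkdc1 and Neurog3, and was 95.6% covered. Of the other 3, the chain on chromosome 10 from 77957251 to 78409500 had 21 regions and met Aire, Dnmt3l and Pfkl. That on chromosome 15 from 37008751 to 37436250 had 20 and met Grhl2 and Ncald, and that on chromosome 8 from 125721751 to 126105750 had 19 and met Pcnx2, Map3k21 and Kcnk1.

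Coverage of a base fell off slowly with distance from covered sequence. On the 11 broadly covered chromosomes, a bin 0.75 kb from a covered bin was covered in 90.2% of cases, a bin 3 kb away in 72.4% and a bin 6 kb away in 65.9%. It was 61.4% at 30 kb, 55.3% at 300 kb and 40.1% at 3 Mb, against 33.5% for the chromosome mean weighted in the same way. The fall within the first few kb was steep and that from 6 kb to 300 kb shallow, so the regions were clustered over distances far longer than a region as well as in chains.

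The map was uneven between chromosomes. Chromosomes 1, 2, 5, 8, 9, 10, 11, 14, 15, 17 and 19, each with at least 5% of bases covered, held 42463 regions and 99.1% of covered bases in 52.2% of the assembly. Coverage ran from 5.76% on chromosome 1 and 11.2% on chromosome 14 to 35.5% on chromosome 8, 46.8% on chromosome 15 and 56.5% on chromosome 10. The other 10 chromosomes held 241 regions, with at most 0.714% covered, and Y held 0. Across the 11 chromosomes, coverage had a Spearman's rho of -0.993 with the median gap and 0.633 with the median width, against 0.1 with genes per Mb and 0.182 with GC content. A chromosome with more coverage thus had closer and, to a lesser degree, wider regions, with a median gap of 3 kb on chromosomes 10 and 15 and 12 kb on chromosome 1. How far this unevenness reflects the cells, their chromosome copy numbers or the calling was not tested, and with 1 list these cannot be told apart.

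**Figure D2:**
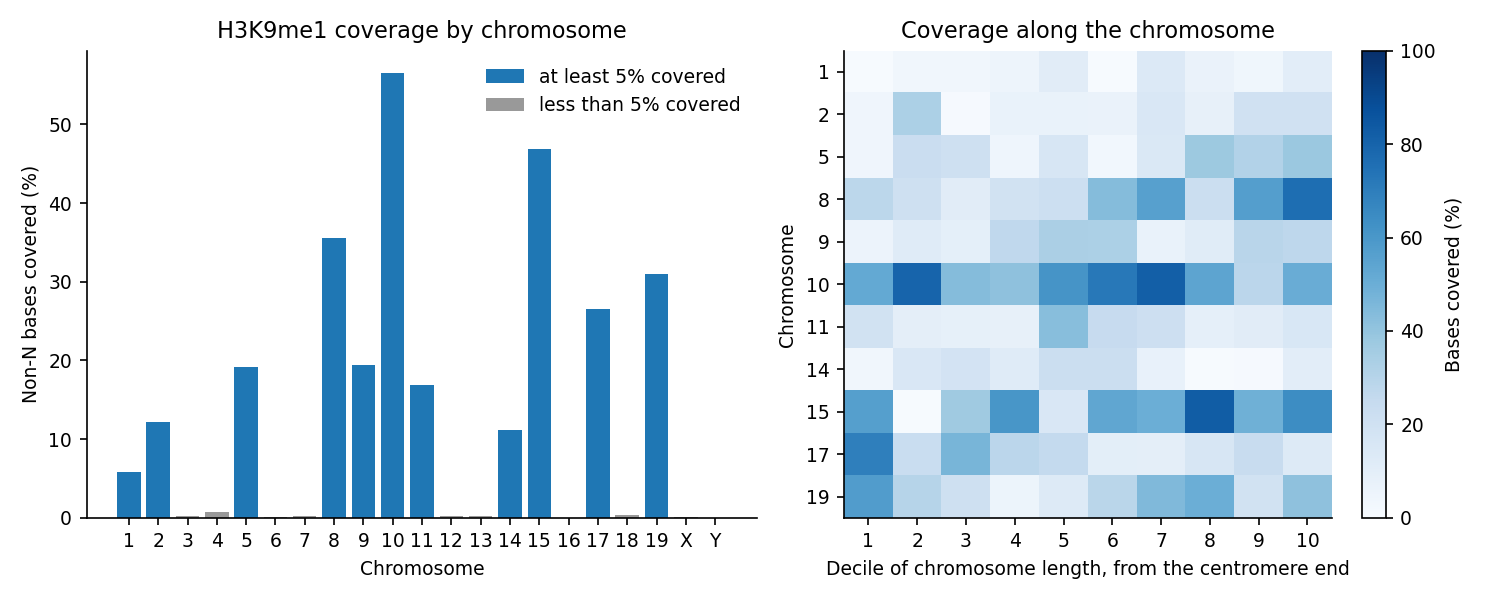
Share of non-N bases covered by H3K9me1 on each chromosome (blue, at least 5%; grey, less), and coverage in deciles of the length of the 11 broadly covered chromosomes, from the centromere end (colour, % of bases). Chromosomes 10 and 15 stand at 56.5% and 46.8%, and the covered stretches lie at different places along each chromosome.

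The 241 regions on the sparsely covered chromosomes had a different width spectrum. Their median width was 7.5 kb against 4.5 kb on the broadly covered chromosomes, and 1.66% were at most 2 bins wide against 20.4%. They were also concentrated, with 92 of the 241 in the 5 windows of 1 Mb that held most. A block of 3 neighbouring windows on chromosome 4 (145000001 to 148000000) held 72 of them, where they met 16 Zfp genes, among them Zfp980, Zfp982, Zfp984, Zfp985 and Zfp991, which encode zinc finger proteins of a fast-evolving tandem cluster. Reads from near-identical copies can be placed wrongly, so the identity of the members met there is uncertain.

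Within the broadly covered chromosomes the regions lay in gene-rich stretches. Of 1387 windows of 1 Mb, 267 (19.3%) held no region, the median coverage was 10.8%, the 90th percentile 70.6% and the highest 95.8%. Coverage of a window and the number of protein-coding gene starts in it had a rho of 0.591 on chromosome 17, the lowest, and of 0.811 on chromosome 15, the highest. GC content and gene density vary together along chromosomes, so these values are descriptions and their separate parts were not tested. Neighbouring windows were alike in coverage, with a Pearson's r of 0.518 to 0.769 by chromosome. Position along the chromosome showed no common pattern. The last decile of chromosome length had the highest mean coverage, 33.4%, and was above the chromosome's own mean in 7 of 11, while the first decile had 27.3% and was above it in 4 of 11.

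The 5 longest stretches without a region on the broadly covered chromosomes were poor in genes. A gap of 12.3 Mb on chromosome 14 (105827251 to 118078500) held 9 protein-coding genes, among them the neuronal adhesion genes Slitrk1, Slitrk5 and Slitrk6 and the glypicans Gpc5 and Gpc6. Another on the same chromosome (87218251 to 98958000, 11.7 Mb) held 6, among them the protocadherins Pcdh9 and Pcdh20, and a further gap (79964251 to 87216750, 7.25 Mb) held 3, among them Pcdh17 and Diaph3. Gaps on chromosome 1 (24030751 to 33498000, 9.47 Mb) and chromosome 5 (54554251 to 63729750, 9.18 Mb) held 17 and 5 genes, the latter among them Pcdh7. These 5 gaps held 0.414 to 1.80 protein-coding genes per Mb, against 6.30 to 13.8 over the 11 chromosomes.

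At gene starts coverage dropped between covered flanks. Over all 21938 protein-coding genes, 9.81% of starts (9.42 to 10.2%) were covered, compared with 21.8% of positions 5 kb upstream and 21.8% of positions 5 kb inside the gene. For the 9740 CpG-rich starts the values were 2.0% (1.74 to 2.30%, 195 genes) at the start, 25.5% upstream and 23.5% inside. For the 12198 CpG-poor starts they were 16.04% (15.4 to 16.7%, 1957 genes), 18.8% and 20.4%. The start over the position 5 kb inside gave a ratio of 0.0853 for CpG-rich and 0.788 for CpG-poor starts. A dip was thus seen at both kinds, and it was deeper at CpG-rich starts, whose flanks were the more covered. When each gene counted with any of its annotated transcript starts, 23.4% of genes were covered, and 15.6% had a covered base within 1 kb of the start.

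The same held on the broadly covered chromosomes, where 16.8% of starts were covered. There, 3.27% of CpG-rich starts (2.85 to 3.75%, n = 5962) were covered against 41.6% 5 kb upstream and 38.3% 5 kb inside, and 28.8% of CpG-poor starts (27.7 to 29.9%, n = 6721) against 33.7% and 36.6%. CpG-rich starts were less covered than either flank on 11 of 11 chromosomes, from 0.885% against 10.3% and 12.6% on chromosome 1 to 5.97% against 78.6% and 74.5% on chromosome 10. On chromosome 15 the values were 9.58%, 79.6% and 73.2%. So the dip was present at both low and high coverage. It was narrow, and coverage around CpG-rich starts had passed the midpoint between its value at the start and that 5 kb away by 1.75 kb upstream and by 2 kb inside.

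**Figure D3:**
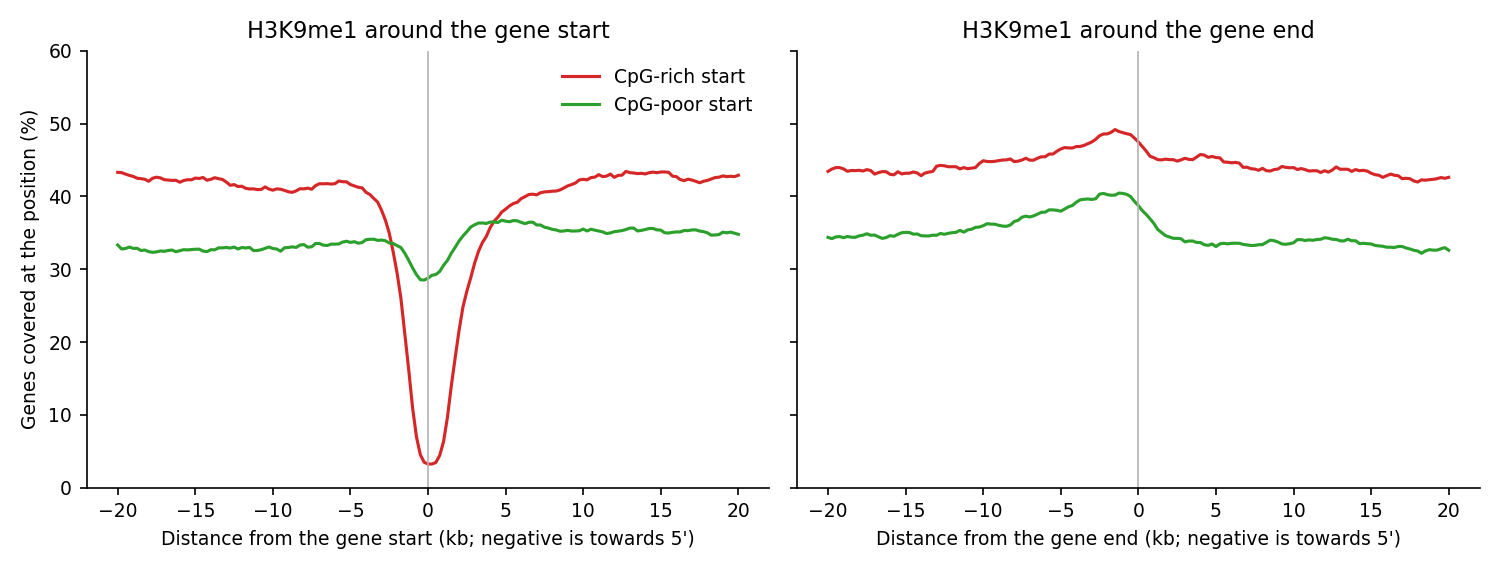
Share of protein-coding genes on the 11 broadly covered chromosomes covered by H3K9me1 at each distance in kb from the gene start and the gene end, for CpG-rich (red) and CpG-poor (green) starts. At the start the CpG-rich curve falls to 3.27% from 41.6% 5 kb upstream, the CpG-poor curve to 28.8% from 33.7%, and both rise up to the gene end.

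Single genes with both flanks covered showed the same notch. Of the 1447 CpG-rich starts covered 5 kb to either side, 1314 (90.8%) were themselves uncovered, whereas 1014 of 1550 such CpG-poor starts (65.4%) were covered. The gap around those 1314 starts had a median of 3.75 kb (10th to 90th percentile 2.25 to 6.75 kb), with a median of 1.55 kb upstream and 1.88 kb inside. As the positions 5 kb to either side were covered by choice, neither side of these gaps could reach 5 kb. Among the H3K9 demethylase genes, Jmjd1c (chromosome 10, 67096125 to 67256326) began 0.375 kb from a region upstream and 3.38 kb from the next inside, and 83.4% of its body was covered. Kdm4b had 80.9% of its body covered and uncovered stretches of 2.56 and 2.69 kb. The methyl-lysine reader gene L3mbtl2 had 82.1% covered, with 0.889 and 1.36 kb. Timp3, a fibroblast metalloproteinase inhibitor, and Mcm5, a replicative helicase subunit, had 81.9% and 84.5% of their bodies covered, with 0.872 and 2.88 kb uncovered on the sides of the Timp3 start and 2.32 and 2.93 kb at Mcm5.

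Gaps of a few bins were where CpG-rich starts lay most densely. On the broadly covered chromosomes there were 29.5 CpG-rich starts per Mb in gaps of 3 to 4 bins (2.25 to 3 kb) and 21.3 in gaps of 5 to 8 bins. Gaps of 1 bin held 1.81 per Mb, gaps of over 16 bins 3.59 and the regions themselves 0.602. CpG-poor starts varied less, from 13.7 per Mb in gaps of 3 to 4 bins to 3.77 in gaps of over 16 bins, with 5.97 inside regions. A CpG-rich start lay in 525 of the 7706 gaps of 3 to 4 bins (6.81%), so most short gaps held none.

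**Figure D4:**
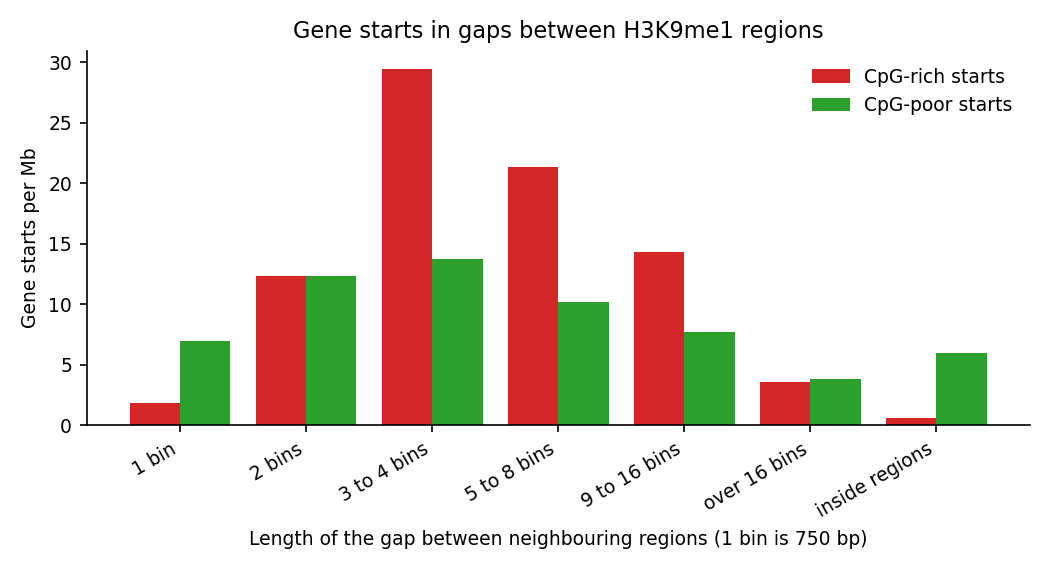
Protein-coding gene starts per Mb in gaps between neighbouring H3K9me1 regions, by gap length in 750 bp bins, and inside regions, for CpG-rich (red) and CpG-poor (green) starts on the 11 broadly covered chromosomes. CpG-rich starts peak at 29.5 per Mb in gaps of 3 to 4 bins and stand at 0.602 inside regions.

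Single bins on the broadly covered chromosomes, of which 23.5% were covered, were then classed by base composition and by position. CpG-rich bins that held an annotated transcript start were covered in 4.85% of 7840 cases, and bins 5.25 kb away from these in 39.3%. CpG-rich bins more than 2 kb from any transcript start were covered in 20.95% of 2515 cases against 24.4% at 5.25 kb. These classes differed in composition. The median GC content was 63.1% at starts and 54.7% beyond 2 kb, and the median ratio of observed to expected CG 0.789 and 0.668. Bins of at least 50% GC that were not CpG-rich were covered in 45.8% of cases at starts and 47.9% beyond 2 kb. At equal GC content of 60 to 65%, the CpG-rich bins were covered in 5.63% (4.71 to 6.71%) of cases at starts and 19.9% (16.6 to 23.7%) beyond 2 kb, and the other bins in 32.3% (29.3 to 35.4%) and 36.0% (33.8 to 38.3%). From 65 to 70% GC, the CpG-rich bins were covered in 4.20% of cases at starts and 17.7% beyond 2 kb. The other bins there were few, with 14.1% (8.61 to 22.35%, n = 99) and 14.6% (9.97 to 20.7%, n = 165). Bins 5.25 kb from the other bins at starts were covered in 48.8% of cases at 60 to 65% GC and 44.4% at 65 to 70%. For the other bins beyond 2 kb these values were 38.9% and 29.4%. CpG-rich bins were thus less covered at starts than away from them in both classes. The few other bins of 65 to 70% GC were low at either position, and in both classes the other bins at starts were below their flanks. The ratio of observed to expected CG was not matched within these classes, so position was not separated from composition. Whether read recovery differs between these sequences was not tested, since the list holds no reads.

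Coverage rose with GC content up to a point. In bins that were not CpG-rich and lay more than 2 kb from any transcript start it was 6.79% in bins of 30 to 35% GC, 22.6% at 40 to 45%, 47.4% at 50 to 55% and 52.5% at 55 to 60%, and 36.0% at 60 to 65%. These values go with gene density along the chromosomes and were not separated from it.

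A few CpG-rich starts lay inside regions, 195 in all, and every one of them was on a broadly covered chromosome. The regions over them had a median width of 16.5 kb, compared with 13.5 kb for the regions over 1957 CpG-poor starts, and 34.4% of them against 22.6% were at least 30 kb wide. The widest lay over Slc22a3 (218 kb), Col13a1 (213 kb), Lrrc3 (169 kb), Rfx4 (167 kb), a transcription factor gene of the brain, Scube1 (131 kb), and Mov10l1 and Ttll8 in 1 region (114 kb), the former encoding a helicase that germ cells need for piRNAs. These 7 genes were chosen after their values were seen.

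Along gene bodies coverage rose from start to end. Over 8241 genes of at least 10 kb on the broadly covered chromosomes, read at 5 positions in each decile of the body, it was 22.7% in the first decile, 33.4% in the second, 41.2% in the fifth and 47.9% in the last. In the 1393 genes over 100 kb it rose from 24.98% to 39.7% without a dip between, so the rise was not limited to the notch at the start. Genes of 10 to 30 kb rose from 19.7% to 49.0% in the eighth decile and stood at 48.2% in the last. Around the annotated end of all genes on the broadly covered chromosomes, coverage was 44.4% 1.5 kb before the end and 38.9% 5 kb beyond it. Over all chromosomes the values were 25.9% and 22.6%.

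**Figure D5:**
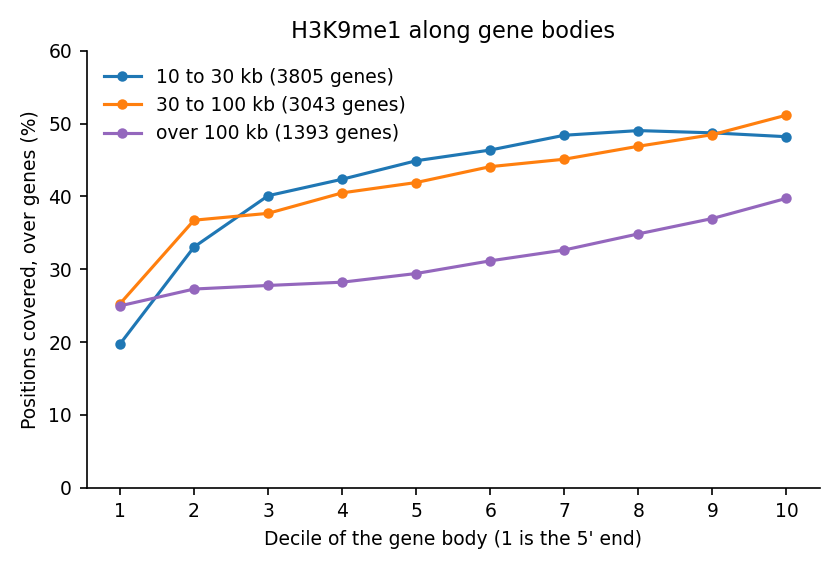
Share of positions covered by H3K9me1 in each decile of the gene body, from the 5′ end, for protein-coding genes of 10 to 30 kb (blue), 30 to 100 kb (orange) and over 100 kb (purple) on the 11 broadly covered chromosomes. Genes over 100 kb rise from 24.98% in the first decile to 39.7% in the last.

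Exons were the most covered of the gene parts compared. On the broadly covered chromosomes 41.5% of exon bases, 31.7% of bases in introns other than the first and 26.3% of first-intron bases lay in regions, against 16.8% of intergenic bases and 23.5% of all bases. Since a region is at least 1 bin of 750 bp, a covered exon was counted with its surroundings. Over all chromosomes, 18.1% of protein-coding gene-body bases and 8.22% of intergenic bases were covered. On the broadly covered chromosomes, starts of non-coding genes differed by kind. For lincRNA 26.5% were covered against 30.4% 5 kb inside, and for antisense genes 31.1% against 39.98%. Processed pseudogenes on these chromosomes, 0.937% of which had a CpG-rich start, showed no dip, with 27.4% against 24.5%. Where an antisense gene overlaps a protein-coding one, the list cannot tell which a region belongs to.

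Gene lists were read against the broadly covered chromosomes as a whole, on which 16.8% of protein-coding starts were covered and 67.2% of genes met a region. By kind of start the shares were 3.27% for CpG-rich and 28.8% for CpG-poor starts. Of 21 fibroblast matrix and surface genes there, 1 had a covered start, Mmp2, a gelatinase, by a region of 3 kb, while 12 met a region, and 3 of the 21 starts were CpG-rich. The median share of the body covered was 17.6% in this list, against 29.0% over all protein-coding genes there. Col6a1 and Col6a2, both on chromosome 10, had 93.3% and 92.4% of their bodies covered with uncovered starts. Fbn1, which encodes fibrillin, had 54.97%, whereas Col1a1, Col3a1, Fn1 and Vim met no region. Of 11 housekeeping genes, 9 with a CpG-rich start, 1 start was covered, the CpG-poor one of Ywhaz, and 3 genes met a region. Ribosomal protein genes were met least often of the lists, 4 of 43 by any region, and 2 of 43 starts were covered, those of Rps2 and the muscle paralogue Rpl3l. These genes are short and 36 of the 43 starts were CpG-rich. The 8 cell cycle genes, 6 with a CpG-rich start, had 1 covered start, the CpG-poor one of the kinase inhibitor Cdkn1a, by a region of 4.5 kb. The covered Rps2 start was also CpG-poor. A start here is the outermost annotated 5′ end, and other transcript starts of Ywhaz, Rps2 and Cdkn1a were not read singly.

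Lists of genes of other tissues and gene families varied. Keratin genes had 26 of 53 starts covered and a median of 79.2% of the body covered. These values pool the keratin genes of chromosomes 11 and 15 and were not split by chromosome. None of the keratin starts was CpG-rich, and of all CpG-poor starts 28.8% were covered over the 11 chromosomes, 20.2% on chromosome 11 and 61.1% on chromosome 15. Among collagen genes 10 of 31 starts were covered (32.3%), and 8 of the 31 starts were CpG-rich. Over the 11 chromosomes 16.8% of all starts and 28.8% of CpG-poor starts were covered. The collagen share was not separated from kind of start or chromosome. The covered collagen starts included those of Col2a1 of cartilage (18 kb), Col10a1 (80.3 kb) and Col17a1 (33 kb), and 25 genes met a region. For markers of other cell types the count was 3 of 13, namely the epithelial Cdh1, by a region of 32.3 kb, and Krt18, and the liver gene Apoa1. Of these 13 starts 3 were CpG-rich. Of 5 germ cell genes 2 were covered, Sycp3 of the synaptonemal complex and Tdrd1 of the piRNA pathway, each by a region of 14.3 kb and each CpG-rich. Olfactory receptor genes, none with a CpG-rich start, had 111 of 779 starts covered (14.3%, against 28.8% of CpG-poor starts) and 171 genes met. Zfp genes, 95 of the 185 with a CpG-rich start, had 8 of 185 starts covered (4.32%), and 107 of the 185 met a region. CpG-poor starts were covered in 63.4% of cases on chromosome 10. Apart from keratins, no list was set against the shares of its own chromosomes. Keratin and olfactory receptor genes lie in tandem clusters, where 1 region can cover several starts and members are not independent.

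None of the 4 H3K9 methyltransferase genes, 3 demethylase genes and 6 genes for HP1 proteins and other readers on these chromosomes had a covered start. Of the 13 starts 11 were CpG-rich, a kind of which 3.27% were covered on these chromosomes, so the count is close to that background. Regions met 3, 3 and 5 of them in that order. Ehmt1 had 29.4% of its body covered in 7 regions, Ehmt2, which encodes G9a, 28.9% in 1 region and Setdb2 3.86%. Cbx5, the gene for HP1 alpha, had 34.6% covered, and Suv39h2 was not met by any region.

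Genes that the study's text uses as examples or controls were described by their 5′ end. Tcap (chromosome 11, 98383811 to 98384953), which encodes telethonin of the muscle sarcomere, lay whole in a region of 1.5 kb. The Cacna1i start (chromosome 15, 80287238 to 80398279) lay in a region of 30 kb, and 91.9% of its body was covered by 6 regions. The 5′ end of Bbs9 (chromosome 9, 22475715 to 22888280), a gene for a subunit of the ciliary BBSome, lay 2.54 kb from a region inside the gene, and 26 regions covered 46.5% of the body. Pou5f1 (chromosome 17, 35506018 to 35510772) had its start in a region of 11.25 kb that covered 73.3% of the gene. Actb (chromosome 5, 142903115 to 142906754), the beta-actin gene, met no region and lay 8.0 kb from the nearest. Zfp180 (chromosome 7, 24081924 to 24107713), on a sparsely covered chromosome, lay 1235 kb from the nearest region. The study used Zfp180 as a positive control locus for H3K9 methylation, with primers in an exon and not at the 5′ end. The examples thus ranged from a gene held by a region of 2 bins to a long gene with 26 separate regions.

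Nearly complete coverage of long genes was seen mostly on chromosomes 10 and 15. Of 5866 genes of at least 20 kb on the broadly covered chromosomes, 561 were covered over more than 90% of their length, 318 of them on chromosomes 10 and 15, and 1172 met no region. The longest of those covered whole were Rfx4 (150 kb), Scube1 (120 kb), Slc22a3 (88.8 kb), Edar (74.9 kb), the ectodysplasin receptor gene, and Mov10l1 (72.2 kb), followed by Nox3, Fam186a, Pmfbp1, Il20ra and Rdh16, each within 1 region and covered over its start. Among the 10 most covered genes of at least 100 kb, 4 were covered over 98.8 to 99.2% and yet had an uncovered, CpG-rich start. These were Adarb1, an RNA-editing enzyme gene, Polr3b, which encodes an RNA polymerase III subunit, Zdhhc14, a palmitoyltransferase gene, and Cacng2, which encodes stargazin. The uncovered stretch ran from 3.48 kb upstream to 1.02 kb inside at Adarb1, from 1.29 to 0.959 kb at Polr3b, from 1.81 to 1.19 kb at Zdhhc14 and from 1.47 to 1.53 kb at Cacng2. Map7, Col13a1, Stab2 and Nipal2 completed the 10 with covered starts and 98.6 to 99.4% of the body.

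Set beside the other lists of the series, each also 1 list without replicate values, coverage at CpG-rich starts over that 5 kb inside was 0.0853 for H3K9me1, 0.408 for H3K9me2 and 0.873 for H3K9me3. The starts themselves were covered in 2.0%, 1.56% and 3.46% of cases and the positions inside in 23.5%, 3.83% and 3.96%, so the ratios differed mainly through the inner positions. The medians of width were 4.5, 4.5 and 5.25 kb and those of gap 4.5, 5.25 and 8.25 kb. These differences were not tested.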

How the data were processed

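ChIP-seq of H3K9me1 and input was done in MEFs with 2 replicates each. Per the study's description, paired-end reads were aligned by the authors to mm10 (GRCm38) with bwa (0.7.1 per the submitters' processing notes), and regions were called with histoneHMM, which classes bins as enriched or not. The calling threshold and how replicates and input entered are not given in the sources used here. The deposited files hold chromosome, start and end of each region on a grid of 750 bp bins, with no score. Starts count from 1 and ends are included.

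Coverage was taken over bases that are not N. GENCODE M21 gave gene starts (the 5′ end of the gene) and bodies, and GRCm38.p6 the GC content and the ratio of observed to expected CG. Broadly covered chromosomes had at least 5% of bases covered. Chains joined regions with gaps of at most 3 kb. No test was run, since there is 1 list. Functions were tested on simulated data. The regions, gene lists and limits were chosen with earlier results of these data known. Named genes are the study's examples and controls, listed genes, and genes met by the 10 widest regions and by the 5 chains with most regions. Also named are the 10 most covered genes of at least 20 and 100 kb, and genes in the 5 longest gaps on broadly covered chromosomes. Alternatives covered region width, joining, chromosomes, 0-based starts, gene sets, distances, windows and CpG limits. The H3K9me2 and H3K9me3 lists were used for 1 comparison. Python 3.11.15, NumPy 2.4.6, pandas 2.3.3, SciPy 1.17.1 and Matplotlib 3.10.9 were used.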

Additional observations from a re-analysis of the deposited data

How the results depend on the processing

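No paired analysis was possible because the list holds no values per replicate. Leaving out each replicate and the replicate block were therefore not run. Of 89 values of 14 results under alternatives, 36 stayed within the limits set around the reported value (1.5 times for counts and lengths, the 95% interval for shares, ratios and medians) and 53 moved. These intervals are narrow at such counts. Coverage at gene starts stayed below that inside in 9 of 9 alternatives, and CpG-rich starts below CpG-poor starts in 6 of 6. All of these kept the outermost annotated 5′ end as the start. Alternatives that redefine the start were read only for the share of genes covered, so the dip was not tested under them.

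With regions of at least 2 kb, the median width and gap were each 5.25 kb, the share of gaps up to 3 kb 37.5%, windows without a region 57.1%, gene-body bases covered 17.7% and intergenic bases 7.90%. With regions of at least 5 kb there were 19132 regions and 13071 chains, the median width was 9.75 kb and the median gap 7.5 kb. The same limit gave 31.7% of gaps up to 3 kb, 62.3% of windows without a region and 96.1% of covered bases on broadly covered chromosomes. It also gave 8.11% of gene starts, 13.2% of CpG-poor starts, 15.3% of gene-body bases and 6.46% of intergenic bases covered. Joining regions 1 bin apart gave a median gap of 5.25 kb, 33.6% of gaps up to 3 kb, 18.3% of gene-body bases and 8.31% of intergenic bases.

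On the broadly covered chromosomes only, 19.3% of windows held no region and 16.8% of starts, 3.27% of CpG-rich and 28.8% of CpG-poor starts, 31.3% of gene-body bases and 16.8% of intergenic bases were covered, since chromosomes with few regions were left out. Without chromosome 10 the median gap was 5.25 kb, 38.1% of gaps were up to 3 kb, 57.7% of windows held no region and 98.8% of covered bases were on broadly covered chromosomes. Gene starts were then covered in 8.53% of cases, CpG-poor starts in 13.9%, gene-body bases in 15.5% and intergenic bases in 6.39%. Reading starts as 0-based gave 4.499 kb for the median width and 4.501 kb for the median gap, by construction.

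With genes of all biotypes 12.0% of starts and 14.6% of CpG-poor starts were covered, the ratio of start to 5 kb inside was 0.69 and gene-body coverage 17.2%. Counting every transcript start gave 23.4% and any base within 1 kb 15.6% of genes. The ratio was 0.599 against 2 kb inside and 0.374 in genes of at least 10 kb. Gap limits of 1.5 and 6 kb gave 22.4% and 60.3% of gaps. Windows of 0.5 and 2 Mb gave 60.9% and 48.6% without a region. A limit of 10% covered gave 95.7% of covered bases on broadly covered chromosomes, and outside protein-coding genes 8.63% of bases were covered. Stricter CpG limits gave 0.958% of CpG-rich and 12.7% of CpG-poor starts. The depth behind the regions is unknown from the list.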
